A study of Homo sapiens with 4 samples.

Results

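Frame-preserving alternative cassette exons were 2150 of the 57729 distinct cassette exons in the deposited table of skipped exon events. A cassette exon is an internal exon that is either kept in the mRNA or skipped together with its flanking introns. An exon was taken when its length was from 28 nt to under 500 nt and a multiple of 3, when the SCRM libraries held at least 100 counts of it, and when its inclusion in SCRM was from 0.1 to 0.9. The length, the SCRM counts and the SCRM inclusion therefore chose the exons, and these values are given as a description without a test. The 2150 exons lie in 1678 gene symbols, of which 1333 hold a single such exon and 20 hold 4 or more.

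The RNA came from U87MG cells, a human line that the labels call a likely glioblastoma. Cells were transfected by lipofection with 2.5 µM of RBFOXi, a decoy RNA oligonucleotide carrying repeats of the RBFOX binding motif with a 2′-O-methyl group on every ribose, or with 2.5 µM of SCRM, a scrambled oligonucleotide that served as the control. Each group had 2 libraries, described as independent biological samples of this single line, and the oligonucleotide of RBFOXi replicate 1 is labelled as carrying the dye Cy5. Inclusion is given as PSI, the proportion spliced in, from 0 (always skipped) to 1 (always included), computed from counts divided by the effective length of each form. Delta PSI is the mean of the RBFOXi libraries minus the mean of the SCRM libraries.

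RBFOX proteins are RNA-binding splicing regulators that recognise UGCAUG. Binding in the intron downstream of an exon usually promotes its inclusion, and binding upstream usually promotes its skipping. Skipping an exon whose length is a multiple of 3 leaves the reading frame after it intact, so such exons commonly add or remove a short internal stretch of a protein rather than truncate it. Exons regulated by RBFOX proteins are known from many genes of the cytoskeleton and of cell adhesion.

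The exons had a median length of 111 nt, equal to 37 codons, with a range of 30 to 495 nt. Of the 2150 exons, 1629 (75.8%) matched a wholly coding exon of the GENCODE annotation. For comparison, 57.2% of the 2468 frame-shifting exons chosen by the same limits and 82.8% of all distinct exons were wholly coding. A further 476 of the frame-preserving exons were annotated but not wholly coding, 209 of them with a coding part, and 45 had no annotated exon with the same ends. Among the 1607 coding exons annotated in a single reading frame, 790 (49.2%) began with a complete codon, 599 (37.3%) began with the last 2 bases of a codon and 218 (13.6%) with the last base. The corresponding shares over all distinct exons were 46.9%, 31.2% and 21.9%. Of the coding frame-preserving exons, 0 held a stop codon in every annotated frame. Their match to a coding part of the annotation largely sets this count.

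The sequences printed here were read from GRCh37, the assembly that hg19 names, on the strand of the gene and 5′ to 3′. The first set gives the intron around the RBFOX motif beside 11 of the 15 exons called changed in the tests that follow, because the distance and number of copies of the motif are compared with the change in inclusion. The stretches of MPRIP and EPB41L1 hold the first of 2 copies within 300 nt, and their second copies begin at 240 and 290. Capitals mark TGCATG, which is read as UGCAUG in the RNA. Distances count from 1 at the intron base next to the exon, to the base of the motif nearest to the exon.
NFYA exon of 84 nt, chr6:41048652-41048760, plus strand, downstream: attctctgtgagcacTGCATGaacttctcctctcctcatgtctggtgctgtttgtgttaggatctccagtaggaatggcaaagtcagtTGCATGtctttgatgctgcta
MPRIP exon of 63 nt, chr17:17083991-17084026, plus strand, downstream: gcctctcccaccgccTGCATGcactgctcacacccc
GOLIM4 exon of 84 nt, chr3:167758417-167758523, minus strand, downstream: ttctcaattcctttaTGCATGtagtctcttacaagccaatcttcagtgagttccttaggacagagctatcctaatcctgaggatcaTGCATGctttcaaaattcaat
EPB41L2 exon of 147 nt, chr6:131199032-131199067, minus strand, downstream: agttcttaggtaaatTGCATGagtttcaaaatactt
EPB41L2 exon of 63 nt, chr6:131201129-131201198, minus strand, downstream: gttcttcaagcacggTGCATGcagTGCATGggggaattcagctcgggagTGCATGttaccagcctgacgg
ABI1 exon of 87 nt, chr10:27044392-27044545, minus strand, downstream: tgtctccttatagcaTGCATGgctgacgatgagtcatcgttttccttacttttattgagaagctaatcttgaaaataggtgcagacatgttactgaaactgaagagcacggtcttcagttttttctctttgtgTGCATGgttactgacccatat
FAT1 exon of 36 nt, chr4:187511380-187511521, minus strand, downstream: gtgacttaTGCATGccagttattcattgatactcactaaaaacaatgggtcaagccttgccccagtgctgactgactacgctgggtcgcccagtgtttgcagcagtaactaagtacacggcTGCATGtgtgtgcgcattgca
EPB41L1 exon of 411 nt, chr20:34797922-34797957, plus strand, downstream: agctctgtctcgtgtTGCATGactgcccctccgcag
FN1 exon of 273 nt, chr2:216257592-216257627, minus strand, downstream: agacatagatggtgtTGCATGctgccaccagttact
ACTN1 exon of 81 nt, chr14:69345673-69345705, minus strand, downstream: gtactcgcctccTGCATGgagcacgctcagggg
PBRM1 exon of 156 nt, chr3:52588906-52588991, minus strand, upstream: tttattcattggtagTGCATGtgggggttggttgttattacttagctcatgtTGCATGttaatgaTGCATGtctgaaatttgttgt

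The second set gives 3 short exons in capitals with 20 bases of intron on each side, as examples of what is added or removed. SPAG9 and MYO18A are shown because they changed without a UGCAUG within 300 nt, and FAT1 because its motif begins 9 nt after the exon.
SPAG9 exon of 39 nt (13 codons), chr17:49053204-49053282, minus strand: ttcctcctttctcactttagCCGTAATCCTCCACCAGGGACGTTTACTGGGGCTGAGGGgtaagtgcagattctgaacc
MYO18A exon of 45 nt (15 codons), chr17:27412602-27412686, minus strand: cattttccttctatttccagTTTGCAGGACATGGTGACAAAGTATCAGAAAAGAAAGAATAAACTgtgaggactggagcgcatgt
FAT1 exon of 36 nt (12 codons), chr4:187511502-187511577, minus strand: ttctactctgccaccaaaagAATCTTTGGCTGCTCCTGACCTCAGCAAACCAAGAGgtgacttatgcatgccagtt

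The depth behind the values differed between libraries. Counts summed over all skipped exon events were 114415530 to 136097319 per library, with a read counted in each event it fits. The median count per frame-preserving exon was 255 and 307 for RBFOXi and 148 and 319 for SCRM, so SCRM replicate 1 was the shallowest. The log2 odds of inclusion of these exons correlated across exons with r = 0.921 between the RBFOXi replicates and r = 0.859 between the SCRM replicates. The largest event count per library was 128266 to 185009 for VIM, 18796 to 34169 for CD44, 76664 to 104774 for FN1 and 17378 to 101713 for TNC, all genes of mesenchymal or glial cells. NES, listed with these genes, had a largest event count of only 179 to 432. The neuronal genes TUBB3, SNAP25 and MAP2 had largest event counts of 4356 to 6950, 364 to 808 and 176 to 642. The table lists no skipped exon event for GFAP, S100B, SOX2, RBFOX3, SYN1 or RBFOX1, and 11 for RBFOX2, with at most 351 to 2392 counts per library.

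Of the 2150 exons, 2125 passed the filter on low values. Their log2 odds of inclusion were compared in a limma fit over all 39615 tested skipped exon events. The median delta PSI was 0.00974 over the tested frame-preserving exons and -6e-05 over all tested events. This shift was smaller than the spread of the median PSI between replicates (SD 0.0135), and the median PSI of the libraries was 0.714 and 0.721 with RBFOXi and 0.690 and 0.716 with SCRM. The first and the third quartile of delta PSI were -0.0245 and 0.0428. Delta PSI was -0.1 or lower in 156 exons and 0.1 or higher in 156.

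Calls needed a delta PSI of 0.1 or more in size and a limma p under 0.05 after Benjamini-Hochberg adjustment over every tested event. In limma, 15 of the 2125 exons (0.706%) were called, against 0.0682% of all tested events. Inclusion fell with RBFOXi in 12 of them (background 0.053%) and rose in 3 (background 0.0151%). With log2 odds centred per library the split was 12 lower and 1 higher. Of all tested events, which include these exons, 87.4% had a delta PSI under 0.05 in size, against 63.2% of the frame-preserving exons. The limits on SCRM inclusion leave out events near 0 or 1, so the shares called are not like for like. The groups did not overlap in any of the 15, a separation shown by 31.5% of the frame-preserving exons and 30.8% of all tested events. The number of calls was 29 without RBFOXi replicate 1 and 18 without RBFOXi replicate 2, where 12 of the 15 were kept and FAT1, PBRM1 and ACTN1 were lost. It was 0 without either SCRM library, where 112 exons (without replicate 1) and 224 exons (without replicate 2) still had an unadjusted p under 0.05 in limma. Shares of counts not divided by effective lengths gave a delta of -0.148 for EPB41L1, -0.336 for FN1, -0.232 for CTTN and 0.0545 for ACTN1, each over 1.5 times away from the PSI value given here. Among the 2441 tested frame-shifting exons, 2 (0.0819%) were called by the same fit. Whether the shares of both kinds of exon differ was not tested.

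**Figure D1:**
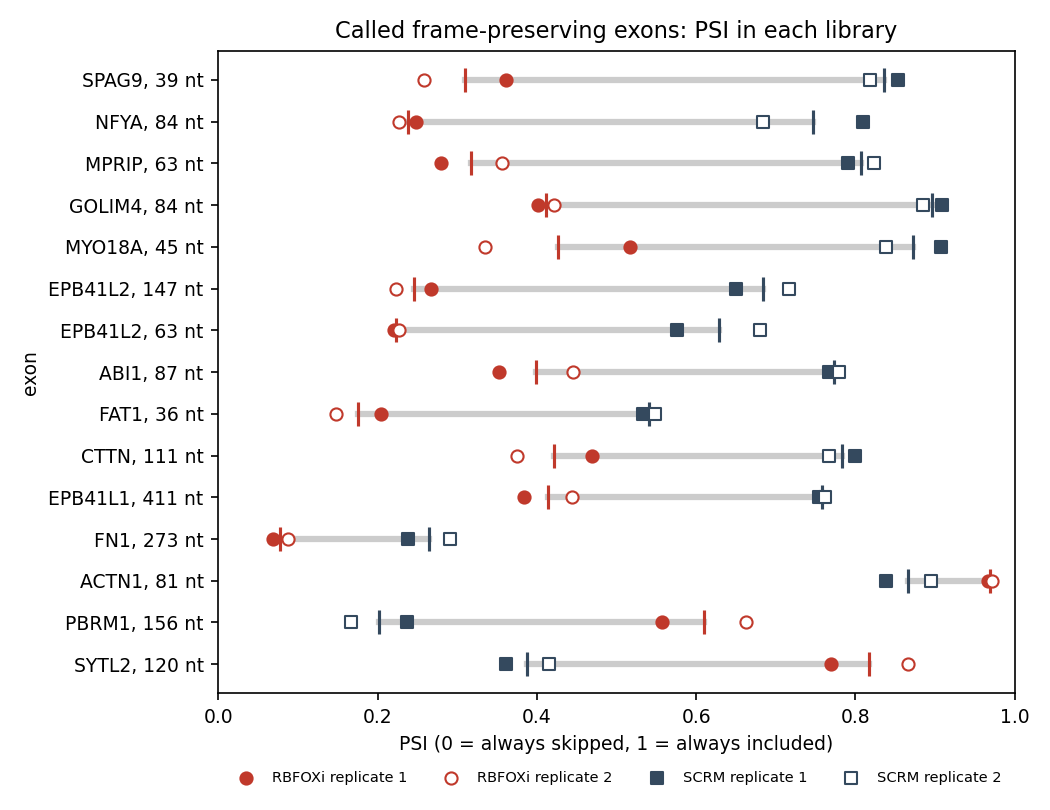
PSI (x axis, from 0 to 1) of the 15 called frame-preserving exons (y axis) in each of the 4 libraries. Circles are RBFOXi and squares SCRM libraries, filled for replicate 1 and open for replicate 2, with a tick at each group mean. In every row the 2 groups are apart, with RBFOXi lower in the upper 12 exons and higher in ACTN1, PBRM1 and SYTL2.

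Of the 7 gene lists read here, that of actin and myosin regulators held the most called exons, 7 lower and 1 higher among 51 tested. The lists were drawn up with earlier results of these libraries known, so this ranking is a description only. MPRIP, which links myosin phosphatase to actin filaments, skipped an exon of 63 nt on chromosome 17, from 17083921 to 17083983. Its PSI was 0.279 and 0.356 in the RBFOXi libraries and 0.791 and 0.824 in the SCRM libraries, on 3901 to 6152 counts per library. Both RBFOXi values lay far below both SCRM values, and the log2 odds of inclusion fell by 3.18 (SE 0.24; limma, adjusted p = 9.19e-05). In the annotation the first 30 bases of this exon are coding and a stop codon follows them, so here a length divisible by 3 does not mean that reading continues through the exon. UGCAUG begins at nucleotide 23 of the intron and again at 240.

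MYO18A, an unconventional myosin, had a PSI of 0.517 and 0.335 with RBFOXi and of 0.907 and 0.838 with SCRM for its coding exon of 45 nt (chromosome 17, 27412622 to 27412666). The RBFOXi libraries differed from each other more than in any other called exon, by an SD of 0.129, and the log2 odds fell by 3.26 (SE 0.42; limma, adjusted p = 0.00768). The only UGCAUG of its downstream intron begins at nucleotide 3053, while the shorter GCAUG occurs 2 times in the first 300 nt, first at nucleotide 15. CTTN, which encodes cortactin, a protein that binds branched actin filaments through tandem repeats, had a PSI of 0.469 and 0.374 with RBFOXi and of 0.799 and 0.767 with SCRM. This coding exon of 111 nt (chromosome 11, 70267576 to 70267686) fell by 2.31 in log2 odds (SE 0.25; limma, adjusted p = 0.00151), and its first downstream UGCAUG begins at nucleotide 794.

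ABI1, a subunit of the WAVE complex that starts actin branching, had a PSI of 0.352 and 0.445 with RBFOXi and of 0.766 and 0.779 with SCRM for its coding exon of 87 nt (limma, adjusted p = 0.0189). A further ABI1 exon of 174 nt was not called, with a PSI of 0.948 and 0.930 with RBFOXi and of 0.944 and 0.868 with SCRM, where the groups overlap. ACTN1, the actin cross-linker alpha-actinin-1, was the only called actin regulator with higher inclusion. Its coding exon of 81 nt (chromosome 14, 69345706 to 69345786) went from 0.838 and 0.895 with SCRM to 0.966 and 0.971 with RBFOXi (limma, adjusted p = 0.0347). The delta PSI of 0.102 lay just past the minimum of 0.1, and the exon was called in 10 of 18 alternative settings, with an adjusted p of 0.0509 in limma on centred log2 odds. UGCAUG begins at nucleotide 13 downstream of this exon, the same side as in the exons that fell.

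Of the protein 4.1 genes, whose products tie actin and spectrin to the membrane, EPB41L1 and EPB41L2 held 3 called exons. The 2 EPB41L2 exons, of 147 and 63 nt, lie near each other on chromosome 6, each within an intron of the other's event, and had delta PSI values of -0.438 and -0.405 (limma, adjusted p = 0.00214 and 0.00835). The EPB41L1 exon of 411 nt (137 codons, chromosome 20, 34797410 to 34797820) had a PSI of 0.384 and 0.444 with RBFOXi and of 0.754 and 0.762 with SCRM (limma, adjusted p = 0.00764). The other 3 frame-preserving exons of EPB41L1 had delta PSI values from -0.00115 to 0.024, so 1 exon of this gene passed the test. EPB41 has an exon of 63 nt that is identical to the EPB41L2 exon at 50 of 63 bases (79.4%) and is likewise followed by 3 copies of UGCAUG within 300 nt. Its PSI was 0.252 and 0.202 with RBFOXi and 0.506 and 0.672 with SCRM, a delta PSI of -0.362 that did not pass the test on 21 to 141 counts per library (limma, adjusted p = 0.614).

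Called exons of adhesion genes lay in FN1 and FAT1. The FN1 exon of 273 nt (91 codons, chromosome 2, 216257654 to 216257926) encodes the extra domain B of fibronectin, an alternative repeat of this matrix protein. It had a PSI of 0.0682 and 0.0876 with RBFOXi and of 0.238 and 0.291 with SCRM, on 11271 to 56460 counts per library (limma, adjusted p = 0.000466). The other 3 frame-preserving FN1 exons were not called, and the one with most counts, of 267 nt, had a delta PSI of 0.000500. The FAT1 exon of 36 nt, in the gene of an atypical cadherin, had a PSI of 0.204 and 0.147 with RBFOXi and of 0.534 and 0.548 with SCRM (limma, adjusted p = 0.0297).

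Membrane traffic, signalling and transcription genes gave the other called exons. GOLIM4, a membrane protein that cycles through the Golgi apparatus, had a PSI of 0.402 and 0.421 with RBFOXi and of 0.909 and 0.885 with SCRM for its coding exon of 84 nt (limma, adjusted p = 0.00115). SPAG9, a scaffold protein of the JNK pathway, had the largest delta PSI of the called exons, -0.526, with a PSI of 0.361 and 0.258 against 0.853 and 0.818 (limma, adjusted p = 0.00132). Both fell in every pairing of an RBFOXi with a SCRM library. NFYA encodes the DNA-contacting subunit of the CCAAT-binding factor NF-Y, and its exon of 84 nt had a PSI of 0.249 and 0.227 with RBFOXi and of 0.809 and 0.684 with SCRM, on 43 to 195 counts (limma, adjusted p = 0.0393). An overlapping NFYA exon that is 3 nt longer and is the annotated coding form had nearly the same values, with a delta PSI of -0.492, and missed the threshold (limma, adjusted p = 0.0523). The 2 forms share most of their reads and sequence and are not independent.

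SYTL2 and PBRM1 had the largest rises. SYTL2, an effector of Rab27 in vesicle traffic, included its coding exon of 120 nt (chromosome 11, 85422156 to 85422275) at 0.769 and 0.866 with RBFOXi and at 0.361 and 0.416 with SCRM (limma, adjusted p = 0.0187). No UGCAUG lies within 300 nt of this exon on either side, the nearest copies being at nucleotide 566 downstream and 914 upstream. A second SYTL2 exon, of 48 nt, had values in the other direction, 0.803 and 0.586 with RBFOXi and 0.905 and 0.862 with SCRM. That second exon was not called but met the weaker rule given below. PBRM1, a bromodomain subunit of the PBAF chromatin remodelling complex, had a PSI of 0.557 and 0.663 with RBFOXi and of 0.237 and 0.167 with SCRM for its coding exon of 156 nt (limma, adjusted p = 0.0498). This call was made in 11 of 18 alternative settings, and the adjusted p in limma was 0.0502 with 1 event per exon, 0.109 with centred log2 odds and 0.0791 without RBFOXi replicate 2. The nearest upstream UGCAUG lies 26 nt before the PBRM1 exon, with further copies at 39 and 76 nt, and the downstream intron of 3906 nt holds 0 copies.

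A weaker rule asked for an unadjusted p under 0.05 in limma, groups that do not overlap, and the same minimum of 0.1 in delta PSI. It took in 73 frame-preserving exons with lower inclusion (3.44%, against 0.525% of all tested events) and 46 with higher inclusion (2.16%, against 0.427%). Of the tested frame-shifting exons it took in 25 with lower (1.02%) and 42 with higher inclusion (1.72%). These exons are candidates and, apart from the 15 called ones, none passed the adjusted threshold. The 104 that were not called split into 61 with lower and 43 with higher inclusion. The shares over all tested events are again not like for like with those of the frame-preserving exons.

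The most negative delta PSI values below the threshold, after the longer NFYA form, included exons of MAP2, SYNE2, EPB41, PPFIBP1, ST7 and MARK3. MAP2, a neuronal microtubule-associated protein, had a PSI of 0.423 and 0.462 with RBFOXi and of 0.918 and 0.812 with SCRM for an exon of 93 nt (limma, adjusted p = 0.411). SYNE2, a nuclear envelope protein that binds actin, had a PSI of 0.242 and 0.285 against 0.654 and 0.661 for an exon of 69 nt, with UGCAUG at nucleotide 16 downstream. Both exons showed differences as large as many called ones, on 37 to 103 counts per library. PPFIBP1, a liprin family protein, had a PSI of 0.0579 and 0.0433 with RBFOXi and of 0.552 and 0.265 with SCRM, the first SCRM value on only 19 counts. ST7 had a delta PSI of -0.346 and the polarity kinase MARK3 one of -0.341, and neither has UGCAUG within 300 nt downstream.

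The most positive values below the threshold were in PLA2G6, PPP3CC, SMARCC2, PLXNA4, NBAS, EXOC1, GUSBP11 and C11orf95, with delta PSI values from 0.238 to 0.299. SMARCC2, a core subunit of SWI/SNF chromatin remodellers, had the lowest p of these, with a PSI of 0.616 and 0.653 with RBFOXi and of 0.391 and 0.351 with SCRM for an exon of 66 nt (limma, adjusted p = 0.353). In PLXNA4 and NBAS the SCRM libraries themselves differed by an SD of 0.280 and 0.300, whose replicate 1 held only 9 and 29 counts. PPP3CC, a catalytic subunit of the phosphatase calcineurin, had a PSI of 0.485 and 0.593 with RBFOXi and of 0.250 and 0.301 with SCRM for an exon of 30 nt. PPP3CB, named here after its values were seen because it encodes another catalytic subunit, has an exon of the same 30 nt with a PSI of 0.491 and 0.507 with RBFOXi and of 0.294 and 0.260 with SCRM. The nearest upstream UGCAUG lies 24 nt before the PPP3CC exon and 22 nt before the PPP3CB exon. EXOC1 has UGCAUG on both sides, at nucleotide 36 downstream and 67 nt upstream, as has SMARCC2, at 285 and 151. PLA2G6 and GUSBP11 have it within 300 nt upstream only, at 53 and 259 nt. PLXNA4, NBAS and C11orf95 have it on neither side within 300 nt.

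NUMA1 and FMNL3 are RBFOX targets whose splicing, by RT-PCR, the study reported to change with RBFOXi. Each holds a frame-preserving exon that was not called, and whether it is the exon assayed was not checked. The study also reported alternative exons changed in these libraries by rMATS, and whether the NUMA1 and FMNL3 exons are among them was not checked. The NUMA1 exon of 42 nt, in a spindle pole protein, had a PSI of 0.534 and 0.481 with RBFOXi and of 0.684 and 0.745 with SCRM, with UGCAUG at nucleotide 56 downstream (limma, adjusted p = 0.425). It met the weaker rule. The FMNL3 exon of 153 nt, in a formin that elongates actin filaments, had a PSI of 0.460 and 0.512 with RBFOXi and of 0.383 and 0.409 with SCRM and did not meet the weaker rule.

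**Figure D2:**
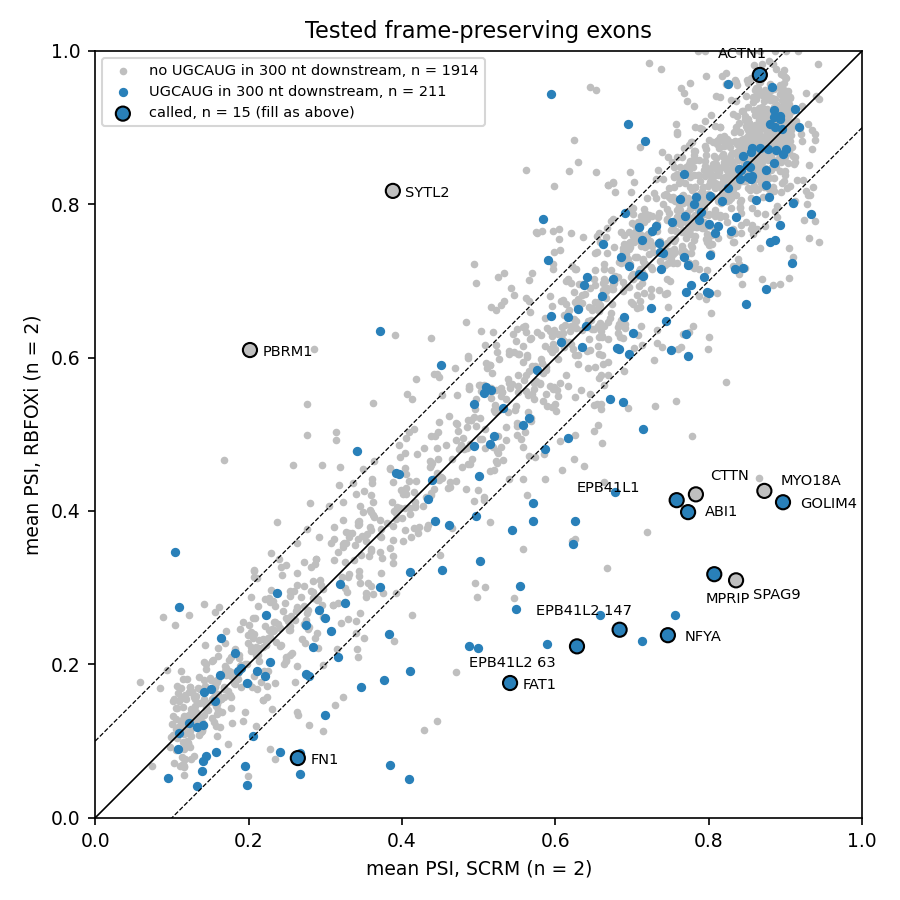
Mean PSI of the 2125 tested frame-preserving exons with SCRM (x axis) and with RBFOXi (y axis), n = 2 libraries each. Blue points have UGCAUG within 300 nt downstream and grey points do not, black outlines mark the 15 called exons, and dashed lines mark a delta PSI of 0.1 either way. Blue points lie mostly below the diagonal and grey points on both sides of it.

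The sequence of the introns was not used to choose the exons. Within 300 nt downstream, UGCAUG was found beside 214 of the 2150 exons (9.95%, 95% Wilson interval 8.76% to 11.3%). The share was 8.39% of the frame-shifting exons and 8.43% of all distinct exons, which include the frame-preserving ones. The interval treats the exons as independent, although 144 overlap another of the set, so it is not read as a test. No test of the difference was made. The last 300 nt upstream held it in 222 exons (10.3%), and 23 exons had it on both sides. Short exons had it downstream most often, with 17.2% of the tested exons of 28 to 50 nt against 8.0% of those of 101 to 150 nt.

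Exons with UGCAUG downstream had lower inclusion with RBFOXi relative to the other frame-preserving exons. The median change in log2 odds was -0.257 in the 211 tested exons with the motif and 0.119 in the 1914 without it, a difference of -0.376. The 4 pairs of an RBFOXi with a SCRM library gave differences from -0.451 to -0.371. The same difference between the 2 RBFOXi libraries was -0.0756 and between the 2 SCRM libraries 0.00520, so the difference between groups was larger than that between replicates. In single libraries, the median log2 odds with the motif minus those without were -0.908 and -0.814 with RBFOXi and -0.409 and -0.267 with SCRM, and the groups did not overlap. With 2 libraries against 2, an exact permutation test cannot give a two-sided p below 0.333, so none is given. The size depended on how the exons were chosen. It was -0.284 for exons chosen on SCRM replicate 1 and compared with SCRM replicate 2, and -0.460 the other way round.

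The change was graded by distance. The median delta PSI was -0.0995 in the 53 exons whose first downstream copy begins within 50 nt, and 26 of them (49.1%) had a delta PSI of -0.1 or lower. It was -0.0468 in the 50 exons with the first copy at 51 to 100 nt, -0.0187 at 101 to 150 nt (35 exons) and -0.0250 at 151 to 200 nt (30 exons). From 201 to 300 nt it was 0.00640 (45 exons) and from 301 to 500 nt 0.0195 (100 exons), so these exons lay near or above those without the motif, whose median was 0.0124. For the 103 exons with a copy within 100 nt, the median PSI was 0.428 and 0.446 in the RBFOXi libraries and 0.558 and 0.621 in the SCRM libraries.

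**Figure D3:**
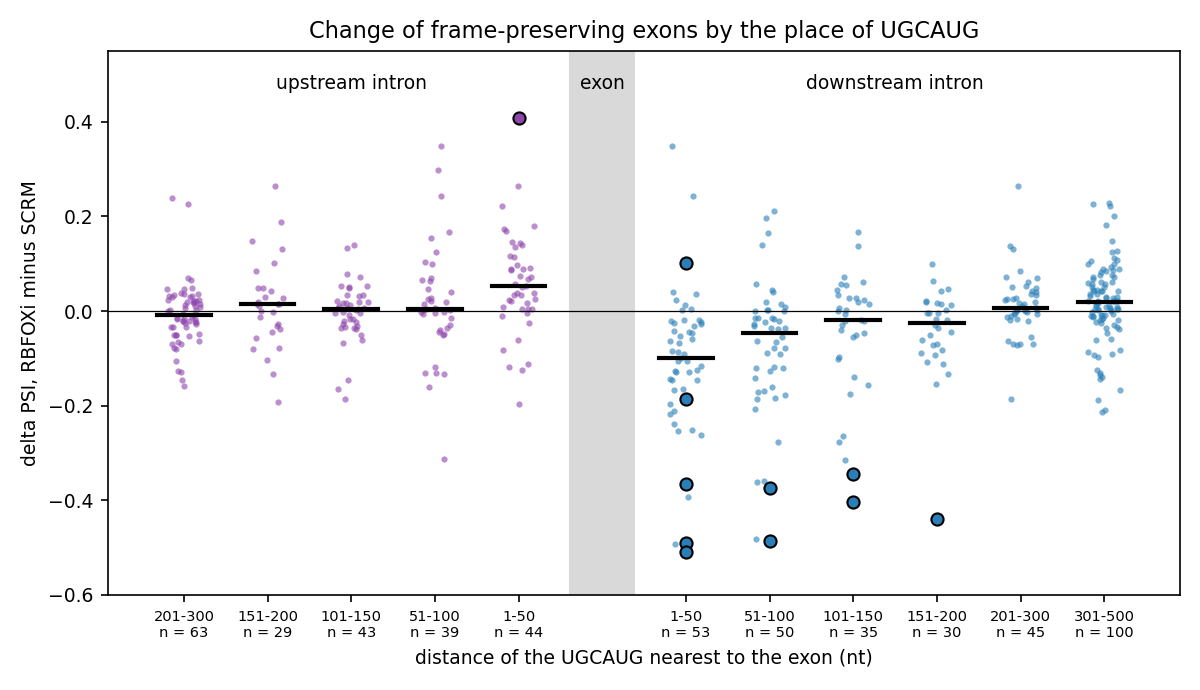
Delta PSI (y axis) of tested frame-preserving exons by the distance in nt of the UGCAUG nearest to the exon (x axis), upstream on the left and downstream on the right of the exon. Each point is an exon, bars are medians, outlined points are called exons, and an exon with the motif on both sides is drawn on each. The lowest median, -0.0995, is at 1 to 50 nt downstream and the highest, 0.0522, at 1 to 50 nt upstream.

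The median also differed by the number of copies. With 1 copy in the first 300 nt the median delta PSI was -0.0207 (182 exons), with 2 copies -0.106 (25 exons) and with 3 copies -0.274 (4 exons). The 4 exons with 3 copies were the 63 nt exons of EPB41L2 (delta PSI -0.405) and EPB41 (-0.362), an EFNA5 exon of 81 nt (-0.185) and a KITLG exon of 84 nt (-0.147), and of these EPB41L2 alone was called. EFNA5 encodes an ephrin ligand and KITLG the ligand of the KIT receptor. Of the 29 exons with 2 or more copies, 24 had a negative delta PSI, 17 had one of -0.1 or lower, 0 had one of 0.1 or higher and 7 were called. Those with a positive value included exons of KIAA1199 (99 nt, 0.000790), WNK1 (279 nt, 0.00450), SAP130 (105 nt, 0.00800) and EYA3 (138 nt, 0.0554). The 29 exons include both overlapping NFYA forms, and in most of the 29 the first copy begins within 100 nt. The number of copies and the distance were not separated. The shorter GCAUG without UGCAUG was present downstream of 325 exons, whose median delta PSI of 0.0114 lay close to the 0.0125 of the 1589 exons with neither.

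**Figure D4:**
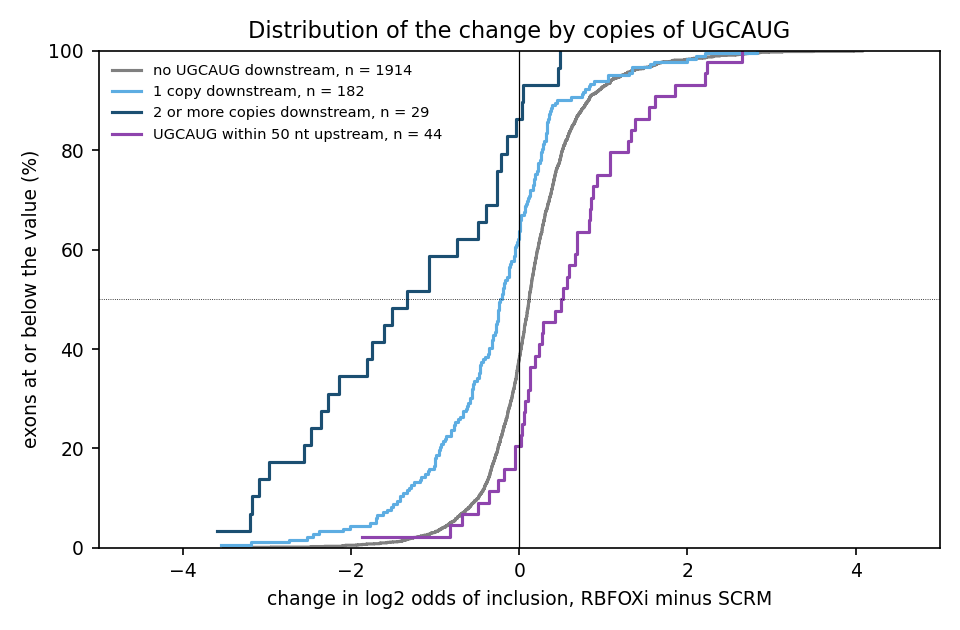
Cumulative share of tested frame-preserving exons (y axis, percent) at or below a given change in log2 odds of inclusion (x axis, RBFOXi minus SCRM), for exons with 0, with 1 and with 2 or more copies of UGCAUG in the first 300 nt downstream and for exons with a copy within 50 nt upstream. The curve for 2 or more copies (29 exons, median -1.33) lies left of that for 1 copy (182 exons, median -0.219), and the curve for upstream copies (44 exons, median 0.510) lies mostly to the right of that for exons without a downstream copy (1914 exons, median 0.119).

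Exons with a copy close upstream had higher inclusion with RBFOXi. In the 44 exons with UGCAUG within 50 nt upstream the median delta PSI was 0.0522, and 35 had a positive and 20.5% a negative value. A delta PSI of 0.1 or higher was found in 12 (27.3%) and one of -0.1 or lower in 4 (9.09%). Of the 1718 exons with UGCAUG on neither side within 300 nt, 38.8% had a negative value, 7.04% one of 0.1 or higher and 4.71% one of -0.1 or lower. PBRM1 was the single called exon among these 44. The median PSI of this group was 0.600 and 0.652 with RBFOXi and 0.555 and 0.649 with SCRM, so here the library medians overlapped. From 51 nt outward the medians lay between -0.00790 and 0.0142. Among the exons that met the weaker rule, a downstream copy within 300 nt was found for 39 of the 73 with lower inclusion (53.4%), and an upstream copy within 300 nt for 7 (9.59%). Of the 46 with higher inclusion 6 (13.0%) had it downstream and 15 (32.6%) upstream, and of the 2006 other tested exons 8.28% had it downstream and 9.77% upstream.

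The frame-shifting exons were the most similar set to set beside these values. Their median change in log2 odds with minus without UGCAUG in the first 300 nt downstream was -0.135, and the 4 pairs of libraries gave -0.248 to -0.151, all smaller in size than the 4 pairs of the frame-preserving exons. Of the 45 frame-shifting exons with the first copy within 50 nt, 2 (4.44%) had a delta PSI of -0.1 or lower, and of the 30 with it at 51 to 100 nt, 6 (20%) did, against 18 of 50 (36.0%) of the frame-preserving exons at that distance. The 39 frame-shifting exons with a copy within 50 nt upstream had a median delta PSI of 0.00820. Of these 39, 28.2% had a negative value, 1 had one of 0.1 or higher and 1 had one of -0.1 or lower. The difference between both kinds of exon was not tested.

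Short exons had negative values more often. Among the 134 tested exons of 28 to 50 nt, 24 (17.9%) had a delta PSI of -0.1 or lower and 5 (3.73%) one of 0.1 or higher, with a median delta PSI of -0.0166. Among the 272 exons of 201 to 499 nt, these numbers were 13 (4.78%) and 27 (9.93%), with a median of 0.0144. The 15 called exons had a median length of 84 nt. By reading frame, exons that begin with a complete codon had a median delta PSI of 0.0147 (779 exons), those that begin with the last base of a codon 0.00750 (218 exons) and those that begin with its last 2 bases 0.00560 (593 exons).

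The gene lists, 7 in number and grouped by function, were read at these exons, and a list's counts are descriptions because the lists were drawn up with earlier results of these libraries known. Over all tested frame-preserving exons, 0.706% were called and the weaker rule took in 3.44% as lower and 2.16% as higher. Actin and myosin regulators had 51 tested exons in 33 genes, of which 7 were called with lower and 1 with higher inclusion (15.7%), and 15 had UGCAUG downstream (29.4%). Their median delta PSI was -0.00130, and FLNC, which cross-links actin, had a PSI of 0.879 ± 0.0485 with RBFOXi and 0.862 ± 0.0772 with SCRM (SD, n = 2). By the weaker rule, 15 exons of this list were lower and 4 higher.

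Adhesion and matrix genes had 37 tested exons in 16 genes, of which 2 (5.41%) were called with lower inclusion (FN1 and FAT1) and 6 were lower and 0 higher by the weaker rule, with a median of -0.0196. CD44, the hyaluronan receptor with a row of variable exons, had 8 of these exons with delta PSI values from -0.0978 to 0.0580. TNC, which encodes the matrix protein tenascin-C, had 6 with values from -0.0578 to 0.0296. None of the CD44 and TNC exons was called.

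Membrane traffic genes had 50 tested exons, with GOLIM4 called lower and SYTL2 called higher (4% in all), and by the weaker rule 8 were lower and 6 higher. APLP2, a relative of the amyloid precursor protein, was the steady example, at 0.333 ± 0.00127 with RBFOXi and 0.325 ± 0.000685 with SCRM (SD, n = 2). Kinases, phosphatases and GTPase regulators had 37 tested exons, of which SPAG9 was called (2.7%) and 8 were lower and 2 higher by the weaker rule, with a median of -0.0310. The kinase MAP4K4 had an exon at 0.184 ± 0.0161 with RBFOXi and 0.183 ± 0.0224 with SCRM (SD, n = 2).

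Chromatin and transcription genes had 54 tested exons, with NFYA called lower and PBRM1 called higher (3.7% in all) and 4 exons each way by the weaker rule. Their median was 0.0216, and HMGA1, an architectural chromatin protein, kept 0.808 ± 0.0460 with RBFOXi and 0.823 ± 0.0341 with SCRM (SD, n = 2). Microtubule and spindle proteins had 23 tested exons and RNA-binding proteins 42, with 0 called in limma in either. At an unadjusted p under 0.05 and the other limits of the weaker rule, 4 microtubule exons were lower and 1 higher, and 3 exons of RNA-binding proteins were lower and 0 higher. MAP4 among the first and EIF4H among the second were steady, with delta PSI values of -0.0156 and -0.00516. The lowest p of the RNA-binding list was that of LSM14B, a component of cytoplasmic RNA granules, whose exon of 117 nt had a PSI of 0.289 and 0.316 with RBFOXi and of 0.595 and 0.513 with SCRM, with UGCAUG at nucleotide 22 downstream (limma, adjusted p = 0.267).

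**Figure D5:**
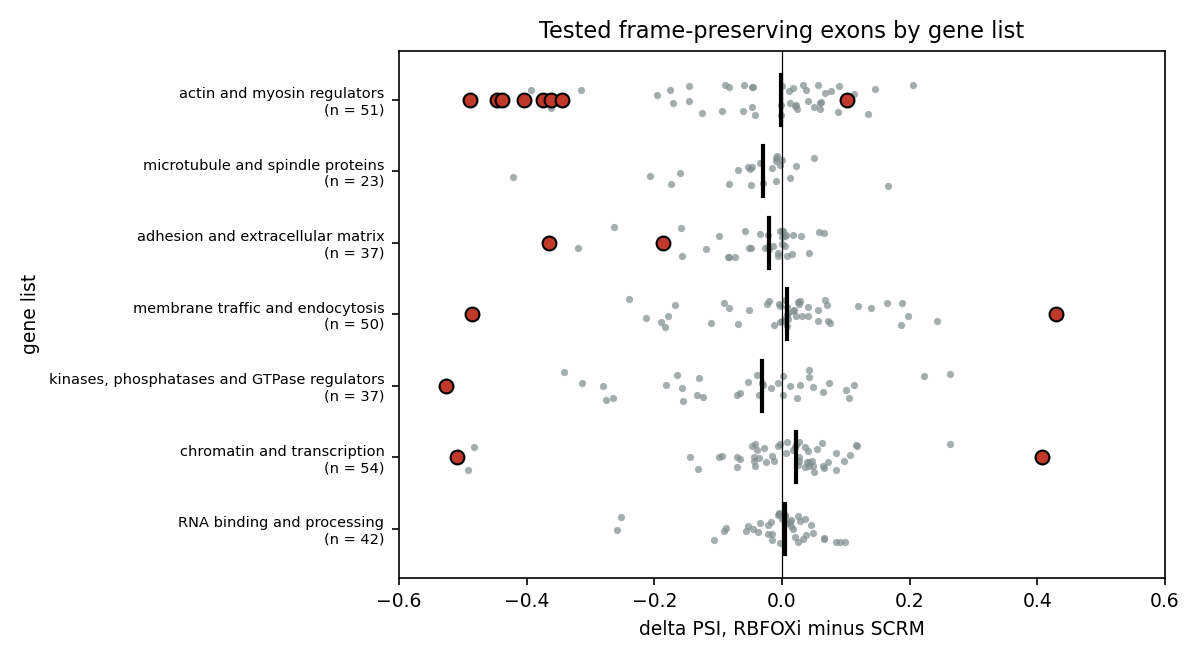
Delta PSI (x axis) of tested frame-preserving exons in the 7 gene lists (y axis). Each point is an exon, bars are list medians and red points are called exons. Called exons lie at both ends, 8 of them in the actin and myosin list, while the medians run from -0.0310 to 0.0216.

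Of the 20 genes with 4 or more of these exons, EPB41L1 and FN1 each held 1 called exon and the others held 0 in limma. FHAD1 held 7 exons with delta PSI from -0.0353 to 0.106, and PAM, an enzyme that amidates peptides, 6 from -0.146 to 0.0110. All exons had positive values in BRD8, a bromodomain protein, where they ran from 0.0207 to 0.0418, and likewise from 0.0477 to 0.0763 in CCDC136 and from 0.0189 to 0.0527 in MPPE1. In 2 all had negative values, from -0.110 to -0.0553 in MFF, a mitochondrial fission factor, and from -0.0781 to -0.00820 in ZNF195. Of all 2150 exons, 144 overlap another of the set.

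The limits of the rule cut through a continuous range. The 3 exons just inside the lower SCRM limit had a PSI from 0.1011 to 0.1015 in the summed counts and delta PSI from -0.0432 to 0.0314, and the 3 just outside had 0.0998 to 0.0999 and -0.0298 to 0.0190. At the upper limit the 3 inside had a PSI from 0.8998 to 0.8999 and delta PSI from -0.162 to 0.0378, and the 3 outside one from 0.9001 to 0.9004 and delta PSI from -0.0306 to 0.0408. At the count limit the 3 exons inside had 100 counts and delta PSI from 0.0626 to 0.0872, and the 3 outside had 99 counts and delta PSI from -0.0305 to 0.187.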

How the data were processed

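Inclusion and skipping counts per event and library, with the effective length of each form, were used as deposited by the authors, without normalization. Per the labels and methods, reads were aligned to hg19 by STAR 2.4.2a and counted by rMATS on UCSC known genes. The authors' own p-values, FDR and inclusion levels, and other event types, were not used. The exons, gene lists and rules were chosen with earlier results of these data known. The event with most counts stands for each exon, taken after the limits were applied.

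Testing required 5 counts in each library, a mean of 20 and 4 counts of either form. Log2 odds of inclusion (pseudocount 0.5) went into limma 3.58.1 (R 4.3.3) with condition as the factor, the prior variance following each event's information. rMATS, with which the study reported splicing changes between RBFOXi and SCRM cells, was not run here. The numbers called here are therefore not those of the study. The fit was also run on simulated counts that had the same spread between libraries for every event. That setting is simpler than these data, so the run is no check of the calls made here. The p-values rest on the spread between 2 libraries a group, moderated toward a variance estimated over all tested events.

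Named exons are all called ones, the 8 most negative and 8 most positive by the weaker rule, the lowest p and the deepest steady exon of each list, exons of ABI1, NUMA1 and FMNL3 and, as ranges, exons at the limits. Others complete a small count, belong to genes with several exons, or were chosen after their values were seen (the second SYTL2 exon, PPP3CB, and the short exons printed). Introns came from GRCh37 (99.95% of the exons lie between AG and GT or GC) and exon annotation from GENCODE 44 on that assembly. A few exons that these rules name are not reported here. UGCAUG was searched on the gene's strand alone.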

Additional observations from a re-analysis of the deposited data

How the results depend on the processing

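In this paragraph, counts in brackets after a number of calls are the calls over all events tested in the same setting. The 15 (27) calls became 116 (317) with Fisher's exact test on summed counts, which ignores the spread between replicates. They became 24 (44) with a filter of 1 count and 23 (40) with a pseudocount of 1. There were 0 (1) with a pseudocount of 0.1 and 0 (1) with a quasi-binomial F test, where 120 and 144 exons had an unadjusted p under 0.05. Chosen after seeing the data, a moderated quasi-binomial dispersion gave 36 (52) and a variance trend on the sampling variance 39 (66). With each library left out the count ran from 0 to 29. With the replicate block it was 58 (119), including all 15. The deviations of same-numbered libraries correlated at 0.217 over these exons, and the titles of same-numbered libraries share an ending (D_R or P), but neither the labels nor the methods say what a number or ending shares. In limma with the block, exons given as not called passed too, among them NUMA1 (adjusted p = 0.000807), LSM14B (0.000402), ST7 (0.000288), MARK3 (0.000143), PPFIBP1 (0.000877), SMARCC2 (0.0016), EXOC1 (0.00251), MAP2 (0.0122), EPB41 (0.0182), PPP3CC (0.0199), SYNE2 (0.0477) and the longer NFYA form (1.55e-05). Other filters, delta PSI minimums, plain shares, centring and 1 event per exon gave 13 to 16 (23 to 28). Apart from Fisher's test, the cause of these moves was not tested. Taking 1 event per exon before applying the limits, also chosen after seeing the data, left 1900 tested exons, 14 of them called.

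The median delta PSI ran from -0.00231 to 0.0166, with its 1 negative value for exons chosen on SCRM replicate 1 and compared with SCRM replicate 2. The median change with minus without UGCAUG (-0.376) kept its sign throughout. It was -0.604 with a window of 150 nt, -0.199 with 500 nt, -0.127 with GCAUG, -0.0394 as delta PSI, -0.284 and -0.460 for exons chosen on SCRM replicate 1 or 2 and compared with the other, and -0.437 to -0.355 or, without SCRM replicate 2, -0.453 with a library left out. The share with UGCAUG was 6.33% in 150 nt and 14.8% in 500 nt (all exons, 4.68% and 12.6%). Of 628 values of 35 named exons under the alternatives, 1 changed direction: the log2 odds change of the ABI1 exon of 174 nt was -0.0967 without SCRM replicate 2 and at most 1.20 with another library left out. Only centring, another pseudocount or a library left out could change a direction. The other settings keep the log2 odds change of the main fit, so most of the 628 values could not reverse. Exons with under 100 counts in a library, most often SCRM replicate 1, have the least precise values.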
